A study of Mus musculus with 16 samples.

Results

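The 10 genes described here are those that mouse eosinophils, basophils and mast cells are known by, out of 49585 gene identifiers counted in the study. They were chosen by name, with earlier results of these data known. The eosinophil genes are Prg2, Prg3, Epx, Il5ra and Ccr3. The basophil and mast cell genes are Mcpt8, Prss34, Cpa3, Ms4a2 and Fcer1a.

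RNA was sequenced in 16 libraries from the bones of C57BL/6 mice aged 8 to 12 weeks, described by the submitters as neutrophils isolated by flow sorting. The P2KO group (4 libraries) carried loxP-flanked alleles of PHD2, the oxygen-sensing prolyl hydroxylase that marks hypoxia-inducible factors for degradation, together with Vav:cre. The P2H2KO group (4 libraries) carried Vav:cre with flanked alleles of both PHD2 and HIF2, one of the factors that PHD2 marks. Each line had a wild type control group, P2WT and P2H2WT, of 4 libraries each. Vav drives Cre across the haematopoietic system, so the deletion is not limited to neutrophils and would include eosinophils, basophils and mast cells. The labels do not say whether the controls carry Vav:cre or flanked alleles, or whether each library came from 1 mouse, so p-values measure the spread between these libraries. The study's title concerns HIF2α and neutrophil motility, and the comparisons below ask whether the genes of the other granulocytes differed with genotype or line.

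Eosinophils and basophils are granulocytes that mature in the bone marrow beside neutrophils, whereas mast cells leave the marrow as progenitors and mature in tissues. Eosinophils are driven by interleukin-5 and store cationic proteins in their granules. Basophils and mast cells bind IgE through a high-affinity receptor and release proteases and histamine when it is cross-linked. GATA family transcription factors act in all of these lineages.

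The ranges of both targeted genes overlapped between the libraries labelled as deleted and their controls. Egln1, which encodes PHD2, had 43.0 to 58.2 CPM (counts per 1000000 counts, scaled by the trimmed mean of M-values) in P2KO and 46.1 to 51.6 in P2WT, and 49.0 to 58.6 in P2H2KO and 47.7 to 54.6 in P2H2WT. Epas1, which encodes HIF2, had 3.41 to 8.28 CPM in P2H2KO and 2.58 to 5.02 in P2H2WT, and 6.73 to 24.2 in P2KO and 8.73 to 11.2 in P2WT. The 24.2 CPM was in P2KO replicate 9. The P2H2WT range of Epas1 lay below the P2WT range, although both groups are labelled wild type. Counts over a whole gene can miss the loss of an exon, so the genotypes below, and every direction between them, rest on the labels. Total counts were between 23450746 and 28601284 per library. The libraries held RNA of several lineages besides neutrophils. The 10 neutrophil genes on the list (Ly6g, S100a8 and others) summed to between 29803 and 76979 CPM per library, and 8 erythroid genes to between 15261 and 31597 CPM. No member had an exon that overlapped an exon of another gene. In bulk RNA, fewer cells of a type and less RNA per cell cannot be told apart.

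The stretch from 250 bases before to 50 bases after the start of transcription, from RefSeq (GRCm38.p6), was available for 9 of the 10 genes. The letters GATAA, or TTATC on the other strand, form the core recognised by GATA factors. They occurred in 7 of those 9 genes, against 25.4% of 32851 mouse promoters of the same 300-base length. The 4 promoters below are shown because they span both gene groups and include Fcer1a, on which the comparison of the lines turns. Capitals mark the GATA core on either strand, and each sequence runs 5′ to 3′ on the strand of its gene.
Prg3: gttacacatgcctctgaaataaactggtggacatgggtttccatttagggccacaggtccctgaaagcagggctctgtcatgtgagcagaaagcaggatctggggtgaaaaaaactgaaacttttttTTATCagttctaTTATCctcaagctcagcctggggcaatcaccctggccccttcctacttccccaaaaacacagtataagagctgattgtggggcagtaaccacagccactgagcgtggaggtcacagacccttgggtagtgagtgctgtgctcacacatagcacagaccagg
Ms4a2: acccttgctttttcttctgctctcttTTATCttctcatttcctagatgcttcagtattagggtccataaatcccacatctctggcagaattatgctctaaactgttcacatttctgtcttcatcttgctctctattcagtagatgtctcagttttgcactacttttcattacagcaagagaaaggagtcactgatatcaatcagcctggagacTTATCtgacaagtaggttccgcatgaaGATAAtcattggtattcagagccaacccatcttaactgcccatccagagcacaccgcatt
Prss34: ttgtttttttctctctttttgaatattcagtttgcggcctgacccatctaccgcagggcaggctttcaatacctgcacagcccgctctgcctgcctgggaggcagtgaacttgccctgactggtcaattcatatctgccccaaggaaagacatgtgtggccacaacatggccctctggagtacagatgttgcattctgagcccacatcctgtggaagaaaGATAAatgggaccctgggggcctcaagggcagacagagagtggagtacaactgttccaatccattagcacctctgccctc
Fcer1a: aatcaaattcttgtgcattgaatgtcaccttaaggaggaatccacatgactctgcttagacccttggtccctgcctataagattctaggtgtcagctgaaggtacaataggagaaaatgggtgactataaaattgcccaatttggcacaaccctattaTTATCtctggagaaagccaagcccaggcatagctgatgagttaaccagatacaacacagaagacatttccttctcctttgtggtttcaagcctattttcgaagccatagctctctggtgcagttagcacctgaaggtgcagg
The stretches lie at chr2:84987965-84988264 on the plus strand (Prg3), chr19:11623670-11623969 on the minus strand (Ms4a2), chr17:25298144-25298443 on the plus strand (Prss34) and chr1:173227180-173227479 on the minus strand (Fcer1a). Ms4a2 held 3 matches and Prg3 held 2, while Prss34 and Fcer1a held 1 each. Cpa3, Il5ra and Ccr3 also held 1 match each, and Epx and Mcpt8 held none in this window. The core of the hypoxia response element, ACGTG or GCGTG on either strand, occurred in 2 of the 9 (Prg3 and Il5ra), against 43.8% of all promoters. The letters TTGCNNAA, a form of the C/EBP motif, or TTNNGCAA on the other strand, occurred in 1 of the 9 (Fcer1a), against 10.8%. Such matches describe the letters only.

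Eosinophil granule RNA was among the most abundant in these libraries. Per kilobase of exon, Prg2 (ENSMUSG00000027073, chr2:84980461-84983632), which encodes the major basic protein of the granule, had a mean of 3291 CPM per kb (SD 745, n = 16), the 12th highest of 49326 genes with a length. Epx, the eosinophil peroxidase (ENSMUSG00000052234, chr11:87864000-87875536), had 292.5 CPM per kb (SD 68.1, n = 16). Prg3, a second major basic protein encoded next to Prg2 (ENSMUSG00000027072, chr2:84988215-84993886), had 128.7 CPM per kb (SD 27.4, n = 16). These 3 granule genes did not share a level: the ranges of Prg2 and Epx, and of Epx and Prg3, did not overlap over the 16 libraries. Below them, the basophil proteases Prss34 and Mcpt8 had 105.0 (SD 26.9, n = 16) and 53.4 (SD 14.7, n = 16) CPM per kb. The receptor genes were lower. Ccr3, the eotaxin receptor, had 15.3 (SD 3.69, n = 16) CPM per kb and Il5ra, the binding chain of the interleukin-5 receptor, had 2.72 (SD 0.944, n = 16). Cpa3, a carboxypeptidase of mast cell and basophil granules, had 15.2 (SD 3.68, n = 16). The IgE receptor chains Fcer1a (alpha, which binds IgE) and Ms4a2 (beta) had 5.87 (SD 2.53, n = 16) and 4.10 (SD 0.926, n = 16). In this order the neighbours Prg3 and Prss34, Prss34 and Mcpt8, Ccr3 and Cpa3, Fcer1a and Ms4a2, and Ms4a2 and Il5ra had overlapping ranges, and the other neighbours did not.

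Each gene was counted in every library. The lowest member counts were 77 for Fcer1a, 138 for Il5ra and 172 for Ms4a2, and Prg2 had between 50235 and 102329 counts. The closest other transcript was 64.1% to 90.4% identical over the part that aligned, and for Fcer1a none aligned. Prg2 and Prg3 were 70.7% identical over 362 bases.

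Other eosinophil and basophil genes were present, and the tryptases and chymases of mast cells were at or near 0. Other eosinophil genes were present at 14.9 to 28.1 CPM for Siglecf, the eosinophil surface lectin, and at 221.9 to 490.0 CPM for Ear6, an eosinophil-associated ribonuclease. Ear1 (230.8 to 491.3 CPM) and Ear2 (152.5 to 312.5 CPM) are 96.4% identical over 713 bases, so their separate counts are uncertain. Alox15, a lipoxygenase of eosinophils, had 118.0 to 330.1 CPM, and Ear10 had 0 to 3 counts. Among other basophil genes, Hdc, the enzyme that forms histamine, which other myeloid cells of the marrow also express, had 4314 to 11063 counts. Cd200r3 had 83 to 137 counts, Cyp11a1 had 48 to 128, Il4 had 9 to 41 and Il13 had 0 to 1. Of the 8 mast cell genes on the list, the tryptases Tpsab1 had 0 counts in all 16 libraries and Tpsb2 had 0 to 3. The chymases Mcpt4 and Cma1 had 0 to 3 and 2 to 10 counts, and the receptor Mrgprb2 had 0 to 1. The remaining 3 were present: Kit, which marrow progenitors also express, had 1344 to 1797 counts, Slc18a2, a vesicular monoamine transporter, had 46 to 123, and Hpgds, a prostaglandin D synthase, had 72 to 221. Cpa3, Ms4a2 and Fcer1a are grouped with the basophil proteases in what follows, although bulk RNA does not show which cells they came from.

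Among the granule genes, Prg2 stood at 2303, 1770, 1978 and 3907 CPM in P2KO replicates 1, 5, 6 and 9, at 2916, 2423, 2071 and 2608 CPM in P2WT replicates 10, 3, 4 and 7, at 3402, 2443, 2214 and 3530 CPM in P2H2KO replicates 11, 12, 15 and 17, and at 2944, 3404, 3068 and 3146 CPM in P2H2WT replicates 13, 14, 16 and 18. P2KO replicate 9 was the highest of all libraries and the other P2KO libraries were among the lowest, so the knockout and control ranges overlapped in both lines. The same library was highest for Epx (1175 CPM), Prg3 (163.2 CPM), Il5ra (18.3 CPM) and Ccr3 (71.3 CPM). It also had the lowest neutrophil sum (29803 CPM) and the highest megakaryocyte sum (239.5 CPM) of the 16, whose part in its eosinophil values was not tested. The basophil genes had other extremes: Mcpt8, the basophil protease, was highest in P2H2KO replicate 12 (84.8 CPM) and lowest in P2H2KO replicate 17 (33.3 CPM).

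**Figure D1:**
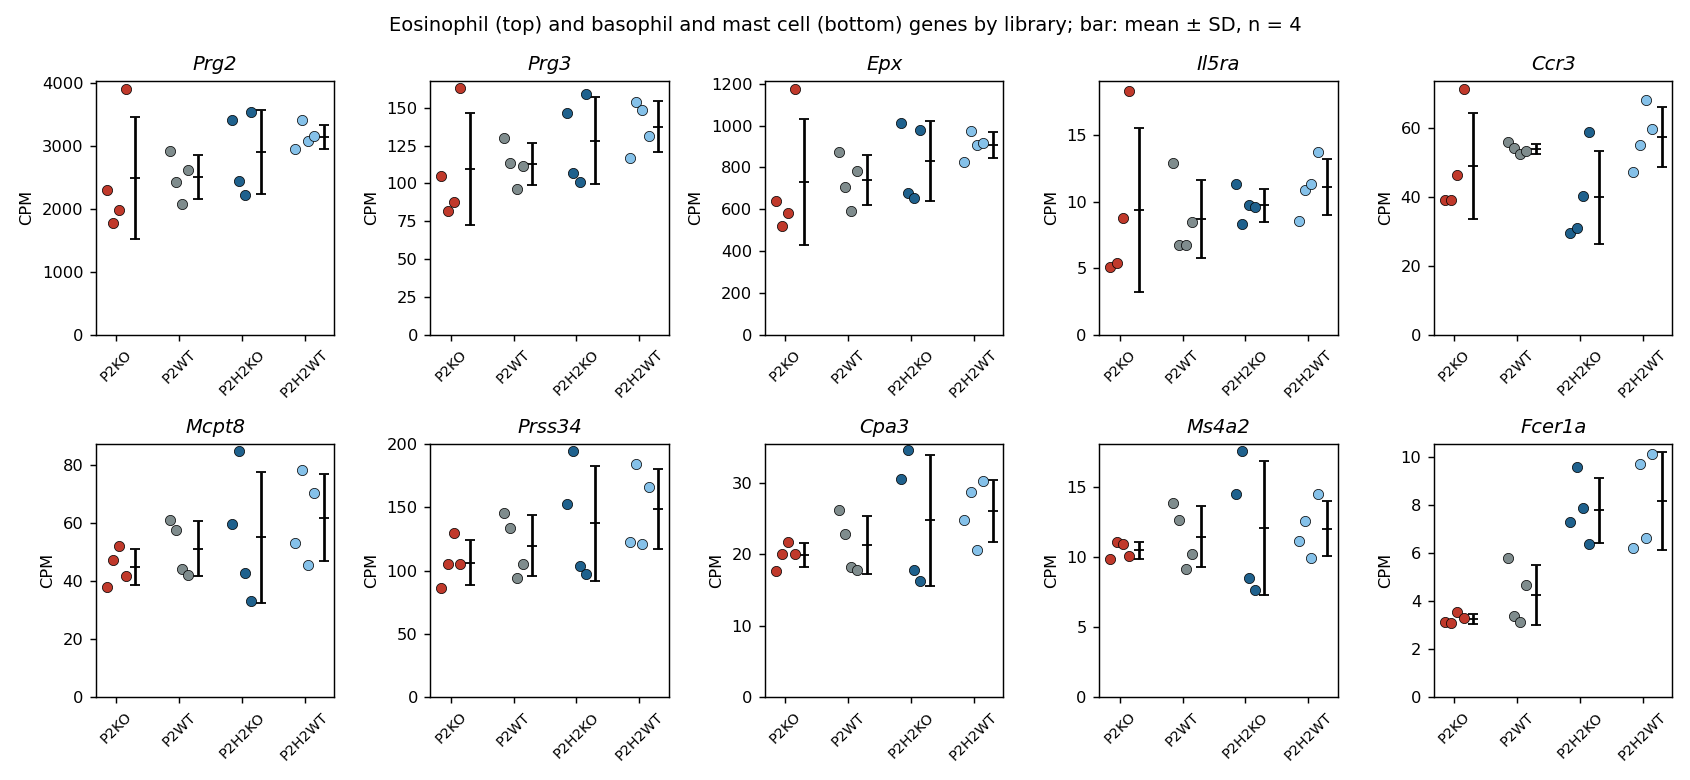
CPM of each of the 10 genes, with 1 point per library in 4 groups of 4, and the mean ± SD as bars. Fcer1a is the only panel in which all 8 P2 libraries lie below all 8 P2H2 libraries, and P2KO replicate 9 is the high point of the 5 eosinophil panels.

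The eosinophil granule genes kept 1 proportion to each other in every library. The ratio of Epx to Prg2 counts was 0.290 ± 0.00845 (SD, n = 16), a coefficient of variation of 2.91%, and ranged from 0.277 to 0.301. Prg2 itself varied with a coefficient of 22.6% over the same libraries. Prg3 to Prg2 varied by 5.03%. The receptor genes kept to Prg2 less closely: Il5ra to Prg2 varied by 21.3% and Ccr3 to Prg2 by 22.6%, on counts of 138 to 480 and 682 to 1868. The basophil proteases Prss34 and Mcpt8 had a count ratio of 2.42 ± 0.190 (SD, n = 16), a coefficient of 7.87%. Cpa3 to Mcpt8 varied by 8.53%. Across the groups of genes, Mcpt8 to Prg2 varied by 31.3% and ranged from 0.00942 to 0.0347. These coefficients are descriptions of the spread, and no test compares them.

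**Figure D2:**
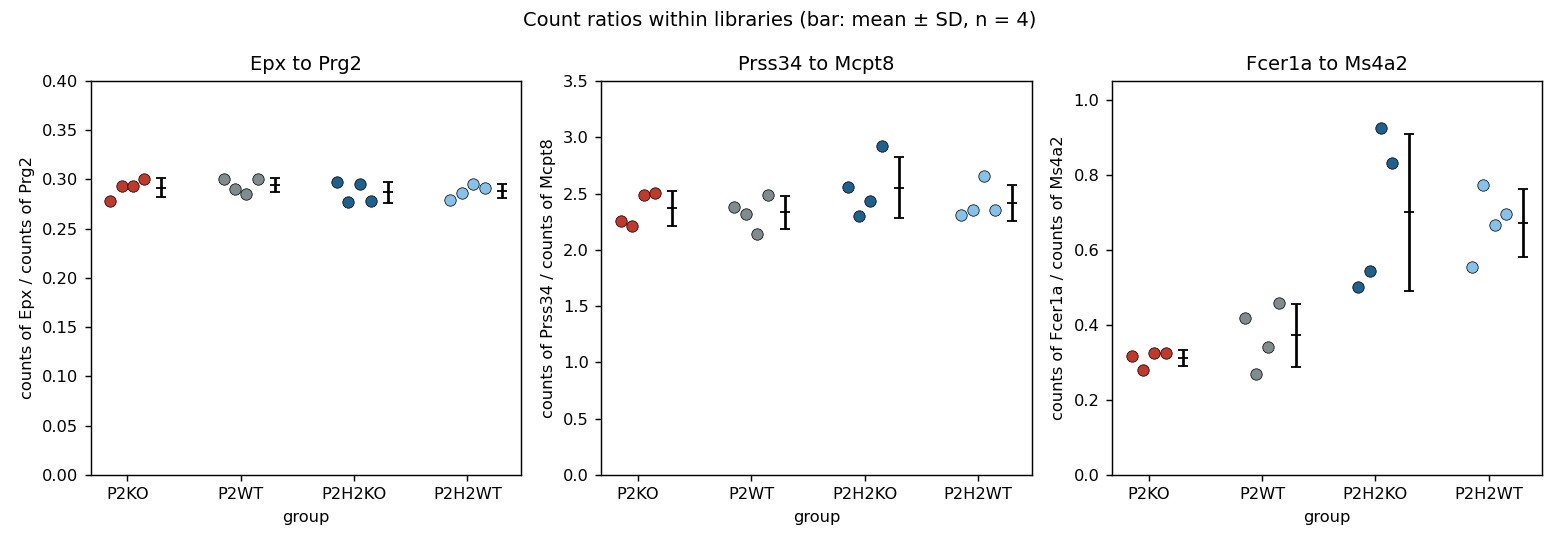
Ratio of the counts of Epx to Prg2, Prss34 to Mcpt8 and Fcer1a to Ms4a2 in each library, by group, with the mean ± SD (n = 4) as bars. Epx to Prg2 lies between 0.277 and 0.301 in all 16 libraries, and Fcer1a to Ms4a2 lies below 0.46 in the P2 libraries and above 0.50 in the P2H2 libraries.

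Correlations over the 8 libraries of each line were computed for all 45 pairs of members, 90 relations in all, on log2(CPM + 1) with exact permutation p-values over 40320 pairings. In both lines, Prg2, Prg3 and Epx were correlated with each other: Prg2 with Epx had r = 0.996 in the P2 line (rho = 1.0, exact permutation p = 2.48e-05, the smallest the design allows; adjusted p = 0.000744) and r = 0.984 in the P2H2 line (rho = 0.929, adjusted p = 0.00223). Without the 2 libraries farthest from the median of Prg2, r was 0.989 and 0.923. Likewise Mcpt8 with Prss34 had r = 0.945 in the P2 line (exact permutation, adjusted p = 0.00670) and r = 0.980 in the P2H2 line (rho = 1.0, adjusted p = 0.000744), and r = 0.862 and 0.975 without the 2 farthest libraries. Of the 90 relations, 24 passed the Benjamini-Hochberg threshold, all positive. By Spearman's rho alone, 12 did, each also among the 24. None of the 50 relations that cross the 2 sets passed, 25 in each line. In the P2 line their separation was smaller without the 2 farthest libraries. The median r of the crossing pairs went from 0.202 to 0.373, with values from -0.162 to 0.827 (Prg2 with Fcer1a). The median of the eosinophil pairs went from 0.864 to 0.579, and that of the basophil pairs from 0.891 to 0.654. In the P2H2 line the crossing median went from -0.080 to 0.070. Among eosinophil pairs, 9 of 10 passed in the P2 line and 3 of 10 in the P2H2 line, the latter being the Prg2, Prg3 and Epx trio. The 8 libraries of a line mix knockout and control groups. On deviations from the group means, 7 of the 10 eosinophil pairs passed in the P2 line, and the other counts of pairs were the same. Pairs that involve Il5ra or Ccr3 in the P2 line rested on a few libraries, since without the 2 farthest (P2KO replicate 9 and either P2KO replicate 5 or P2WT replicate 10) r fell to between 0.405 and 0.693. Among basophil pairs, 6 of 10 passed in each line, all of them among Mcpt8, Prss34, Cpa3 and Ms4a2. In the P2 line the pairs with Ms4a2 also rested in part on 2 libraries: without P2WT replicates 10 and 3, r fell from 0.896 to 0.614 with Mcpt8, from 0.886 to 0.695 with Prss34 and from 0.926 to 0.699 with Cpa3. Pairs with Fcer1a did not pass (r = 0.493 to 0.605 in the P2 line and 0.650 to 0.800 in the P2H2 line).

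**Figure D3:**
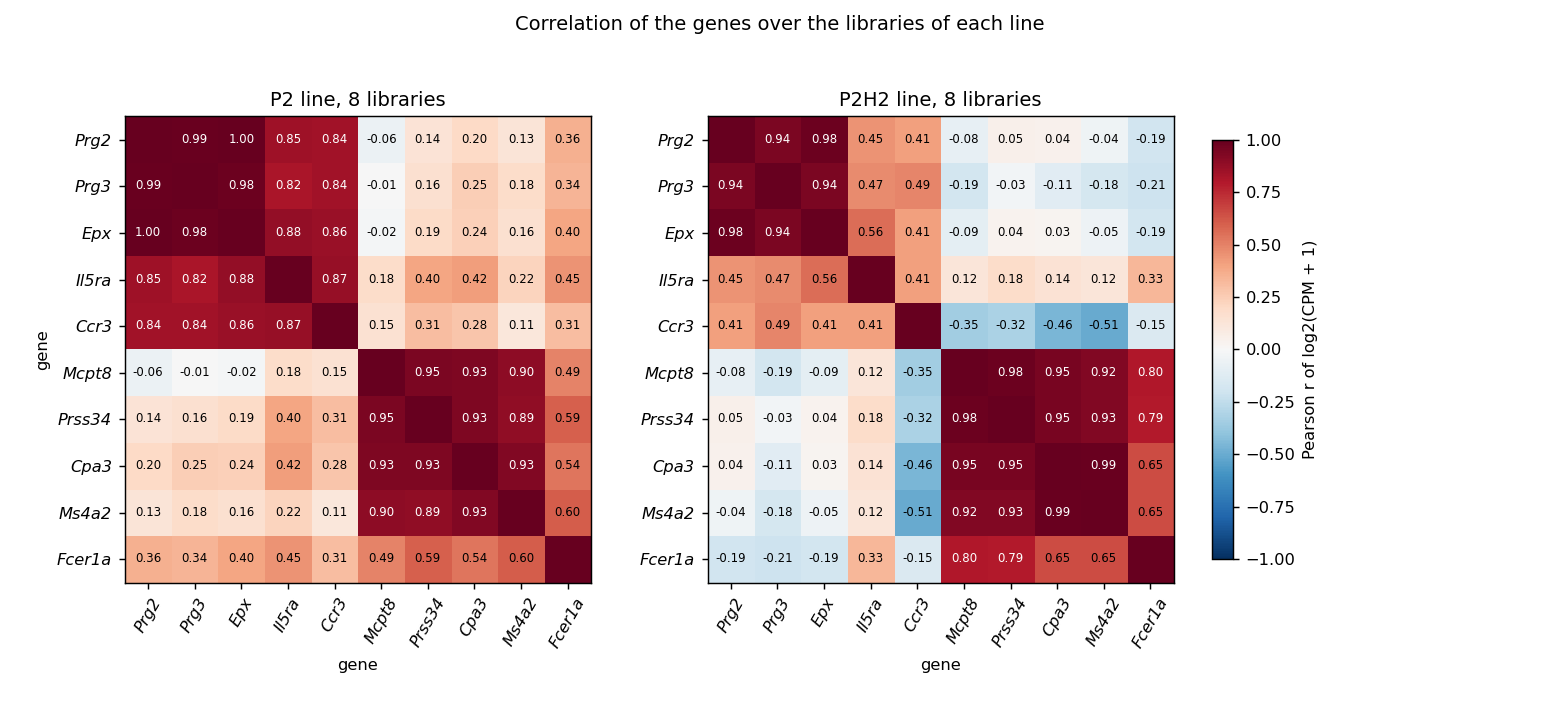
Pearson's r of log2(CPM + 1) for each pair of genes over the 8 libraries of the P2 line (left) and of the P2H2 line (right), from -1 (blue) to 1 (red). The same 2 blocks appear in both panels, the eosinophil granule genes and Mcpt8, Prss34, Cpa3 and Ms4a2, while Il5ra and Ccr3 join the first block in the left panel only. Fcer1a has positive r with the second block (at least 0.493 on the left and 0.650 on the right), though none of its pairs passed.

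Outside the members, the genes whose pattern was most like Prg2, by the lower of its correlations in the 2 lines among 11290 genes with a mean of at least 1 CPM, were Ear6 (lower r = 0.881), Ear1 (0.881), Ear2 (0.878), Rnase12 (0.856) and Sytl4 (0.848). Siglecf ranked 12th at 0.732 and Alox15 101st at 0.541. The genes most like Prss34 were Ptpn23 (0.903), Gata2 (0.855), Mdga1 (0.800), Patj (0.790) and H2-DMb2 (0.788). The other basophil genes ranked lower against Prss34: Cyp11a1 was 98th at 0.539 and Cd200r3 143rd at 0.497, while Hdc was 7504th, with r = 0.687 in the P2 line and -0.624 in the P2H2 line. Gata2, a GATA transcription factor, had r = 0.855 with Prss34 in the P2 line and 0.982 in the P2H2 line, at 11.8 to 26.7 CPM, and r = 0.317 and -0.022 with Prg2. Ear6 had r = 0.977 and 0.881 with Prg2. Each r is over 8 libraries and the genes were chosen for it, so no p is given.

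**Figure D4:**
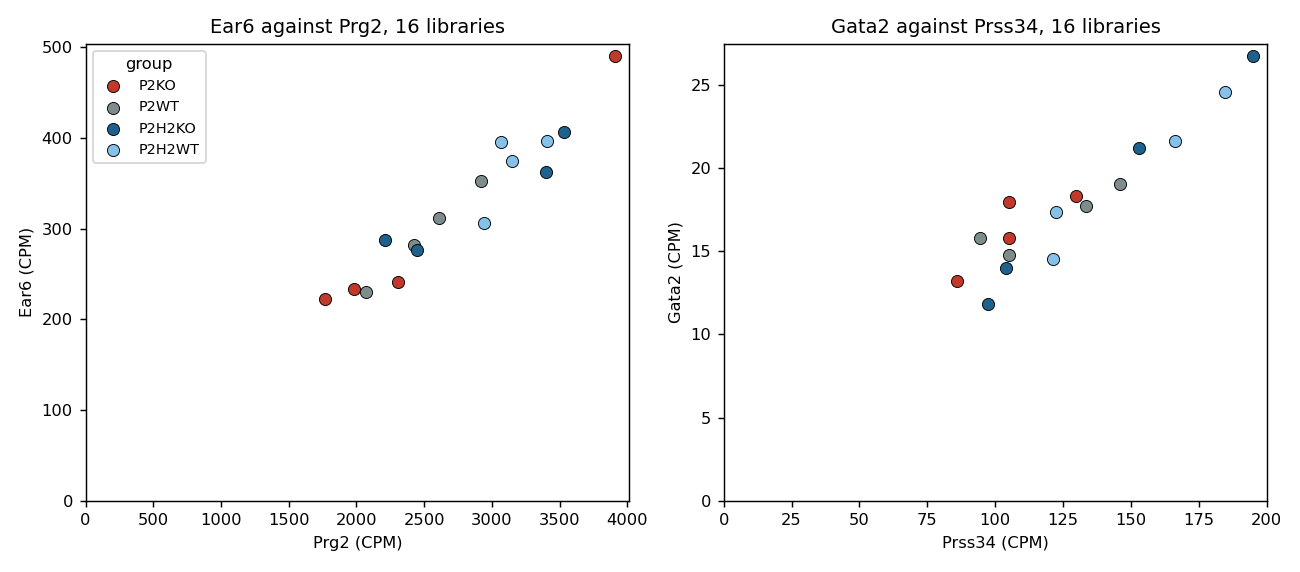
CPM of Ear6 against Prg2 (left) and of Gata2 against Prss34 (right) in the 16 libraries, coloured by group. Libraries with more Prg2 had more Ear6 and those with more Prss34 had more Gata2 in both lines (lower r = 0.881 and 0.855).

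No change of any of the 10 genes was detected in the libraries labelled as lacking PHD2. In P2KO against P2WT, edgeR's quasi-likelihood test with Benjamini-Hochberg adjustment called 0 of the 10, against 6 of 13734 genes (0.0437%) in the whole test, and none of the 10 passed an unadjusted p of 0.05 (3.49% of all genes did). DESeq2 called 23 genes of this comparison, none of them a member. Prg2 had a log2 fold change of 0.00 (SE 0.25, adjusted p = 1.0), with a 95% interval of its ratio from 0.682 to 1.48. Epx was at -0.01 (SE 0.26), with a ratio from 0.668 to 1.49. All 5 eosinophil genes depended on P2KO replicate 9: without it Prg2, Prg3, Epx, Il5ra and Ccr3 had log2 fold changes of -0.30, -0.29, -0.34, -0.44 and -0.37, where Ccr3 had -0.12 with it. Replicate 9 is also the only P2KO library whose title ends in f rather than m, whereas P2WT has 2 of each. The other 5 genes had log2 fold changes below 0, from -0.38 for Fcer1a (SE 0.21, ratio 0.559 to 1.06, adjusted p = 1.0) to -0.09 for Cpa3 (ratio 0.755 to 1.17). These 5 depended on P2WT replicate 10: without it Mcpt8, Prss34, Cpa3, Ms4a2 and Fcer1a had -0.07, -0.04, 0.04, -0.0018 and -0.17. In that comparison 8 of the 10 members lay below 0, against 42.2% of all genes. These were 3 of the 5 eosinophil genes and all 5 basophil and mast cell genes. The other eosinophil genes lay the other way, with 5 of 5 tested above 0 (median 0.08). Their sum was also highest in P2KO replicate 9 (1652 CPM). The other basophil genes split, with 2 above and 2 below 0. These signs are not independent observations, because many members were correlated within their set. Lists of other cells lay to one side as well, with no gene called: 8 of 8 monocyte and macrophage genes (median -0.26), 7 of 7 T and NK cell genes (median -0.20) and 5 of 5 early granule genes (median -0.09) were below 0, and 6 of 6 megakaryocyte genes (median 0.46), 8 of 8 erythroid genes (median 0.14) and 8 of 8 cell cycle genes (median 0.08) were above 0. The monocyte and macrophage genes summed to 1529 to 1791 CPM in P2KO and 1839 to 2202 CPM in P2WT, and the megakaryocyte genes to 69.4 to 239.5 and 58.3 to 126.4 CPM. Their part in the members' values was not tested.

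The libraries labelled as lacking both PHD2 and HIF2 gave the same count of calls. In P2H2KO against P2H2WT, 0 of the 10 were called, against 10 of 13435 genes (0.0744%), and 1 had an unadjusted p below 0.05 (2.63% of all genes did). That gene was Ccr3, at 29.4, 30.9, 40.3 and 58.7 CPM in P2H2KO replicates 11, 12, 15 and 17 and 47.1, 55.0, 68.0 and 59.6 CPM in P2H2WT replicates 13, 14, 16 and 18. Replicate 17 of the knockout reached the level of the controls, so the groups overlapped. Its fitted ratio was 0.701 (interval 0.501 to 0.981), or -0.51 on the log2 scale with an SE of 0.22, and its p by edgeR's quasi-likelihood test was 0.0404 unadjusted and 1.0 adjusted. Its unadjusted p was between 0.00105 and 0.107 over the fits without each library. Under the other settings the log2 fold change of Ccr3 was -0.68 to -0.51, and none of them called it. The other 9 had log2 fold changes from -0.18 (Il5ra) to 0.02 (Ms4a2). Ms4a2 had the ratio 1.01, from 0.674 to 1.52. Of the other eosinophil genes, 5 of 5 tested lay below 0 (median -0.15), and the other basophil genes split, with 2 above and 2 below. Lists of other cells lay to one side here too, with no gene called. All 7 B cell genes were below 0 (median -0.37). So were 5 of 8 monocyte and macrophage genes (median -0.36), each of the 5 with an unadjusted p below 0.05. All 10 neutrophil genes (median 0.18) and all 5 early granule genes (median 0.19) were above 0. Their part in the members' values was not tested.

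Dependence of the PHD2 effect on HIF2 was asked through the difference between the 2 genotype effects over all 16 libraries. By edgeR 0 of 14080 genes were called (0.00%), DESeq2 also called 0, and 212 had an unadjusted p below 0.05 (1.51%), none of them a member. Ccr3 had a difference of 0.38 on the log2 scale (SE 0.31, adjusted p = 1.0) and Fcer1a of -0.33 (SE 0.29). Single libraries moved both: Ccr3 was at 0.14 without P2KO replicate 9 and 0.61 without P2H2KO replicate 17, and Fcer1a at -0.13 without P2WT replicate 10. Under the other settings Ccr3 was at 0.37 to 0.59. For Prg2 the interval of the ratio of effects ran from 0.674 to 1.70. Over both lines together, the mean genotype effect called 24 of 14080 genes (0.170%) and 0 of the 10, all 10 of which lay below 0 (48.1% of all genes) with a median of -0.07. Many members were correlated within their set, so these signs are not independent observations. Of the other eosinophil genes tested, 1 lay above and 4 below 0 (median -0.06), and of the other basophil genes 2 lay above and 2 below. Prg2, Epx, Il5ra and Ms4a2 also changed sign in fits that left out 1 library. Ccr3 was at -0.32 (SE 0.15, unadjusted p = 0.0510 by edgeR) and Mcpt8 at -0.17 (SE 0.17), the latter between -0.31 without P2H2KO replicate 12 and -0.09 without P2H2KO replicate 17. Beside them, 7 of 8 monocyte and macrophage genes (median -0.30, 5 with an unadjusted p below 0.05 and 1 called) and 7 of 7 B cell genes (median -0.17) lay below 0, and 6 of 6 megakaryocyte genes (median 0.45) lay above 0. The monocyte and macrophage genes summed to 1581 to 2674 CPM in P2H2KO and 1797 to 2494 CPM in P2H2WT, the B cell genes to 247.6 to 579.0 in P2KO, 283.5 to 535.7 in P2WT, 156.6 to 447.9 in P2H2KO and 258.6 to 557.4 in P2H2WT.

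Between the lines, Fcer1a was the 1 member that changed. It stood at 3.11, 3.09, 3.54 and 3.28 CPM in P2KO replicates 1, 5, 6 and 9 and at 5.81, 3.39, 3.13 and 4.69 CPM in P2WT replicates 10, 3, 4 and 7. In the other line it stood at 7.29, 9.58, 7.87 and 6.37 CPM in P2H2KO replicates 11, 12, 15 and 17 and at 6.21, 9.70, 6.61 and 10.1 CPM in P2H2WT replicates 13, 14, 16 and 18. All 8 P2 libraries lay below all 8 P2H2 libraries, which held for 34 of 14080 genes (0.241%) in that direction. With genotype held fixed, the log2 fold change was -1.09 (SE 0.15, adjusted p = 0.000946 by edgeR's quasi-likelihood test), a ratio of 0.468 with an interval from 0.377 to 0.582. Over these libraries 776 of 14080 genes were called (5.51%), and Fcer1a ranked 30th by p. The fits without each library gave -1.19 to -1.03, all called. Between the control groups alone, the log2 fold change was -0.93 (SE 0.23, adjusted p = 0.115 by edgeR), which was not called (166 of 13593 genes were, 1.22%), and the P2WT libraries lay below the P2H2WT libraries. DESeq2 gave an adjusted p of 0.00929 there. Each line was counted in a table of its own, so line and table cannot be told apart. The control groups also differed in Epas1, at 8.73 to 11.2 CPM in P2WT and 2.58 to 5.02 CPM in P2H2WT. Its part in the Fcer1a values was not tested.

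The other chains of the IgE receptor and its partners did not pass. Ms4a2 had a log2 fold change of -0.13 (SE 0.16, adjusted p = 0.652) between the lines, at 9.17 to 13.9 CPM in the P2 line and 7.66 to 17.6 CPM in the P2H2 line. Fcer1g, the signalling gamma chain that other Fc receptors share, was at -0.32 (SE 0.15, adjusted p = 0.229). The ratio of Fcer1a to Ms4a2 counts was 0.341 ± 0.0659 (SD, n = 8) in the P2 line and 0.686 ± 0.150 (SD, n = 8) in the P2H2 line, with ranges of 0.268 to 0.459 and 0.501 to 0.924 that did not overlap. No test was run on that ratio. Of 26 tested genes within 1 megabase of Fcer1a on chromosome 1 (chr1:173221284-173227214), 1 was called, Slamf8, a surface receptor of myeloid cells, at -0.46 (SE 0.12, adjusted p = 0.0400 by edgeR). Of 14 genes of the interleukin-5 and IgE receptor signalling list, 1 was called, Jak2, the kinase beneath the interleukin-5 receptor, at 0.18 (SE 0.05, adjusted p = 0.0351). Over all genes 5.51% were called in this comparison, so neither 1 of 26 nor 1 of 14 stands out from that share. None of the other basophil genes was called (0 of 4 tested), with Cyp11a1 at -0.39 (SE 0.15, adjusted p = 0.139).

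Beside Fcer1a, the remaining 9 members had log2 fold changes between the lines of -0.34 (Prss34, SE 0.16, adjusted p = 0.220) to 0.10 (Ccr3, SE 0.15, adjusted p = 0.731). Of the 10 members, 9 lay below 0, against 50.3% of all genes, and their median was -0.26 against -0.00092 over all genes. Since many members were correlated within their set, such counts of signs, here and between the control groups, are not independent observations. Of the other eosinophil genes, 5 of 5 tested lay below 0 (median -0.24), and of the other basophil genes 3 lay below and 1 above (median -0.15). Genes of other cells lay to one side too without being called: all 10 neutrophil genes (median -0.30) and all 5 early granule genes (median -0.12) lay below 0, and all 6 megakaryocyte genes (median 0.74) and all 7 B cell genes (median 0.32) lay above 0. Their part in these values was not tested. Between the control groups alone, 10 of 10 members lay below 0 (53.4% of all genes), from -0.07 for Ms4a2 to -0.93 for Fcer1a. So did 5 of 5 other eosinophil genes tested (median -0.33), while the other basophil genes had 3 below and 1 above (median -0.21). Prg2 (-0.32, SE 0.12, adjusted p = 0.311) did not overlap between the control groups (2.71% of genes lay below in this way).

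**Figure D5:**
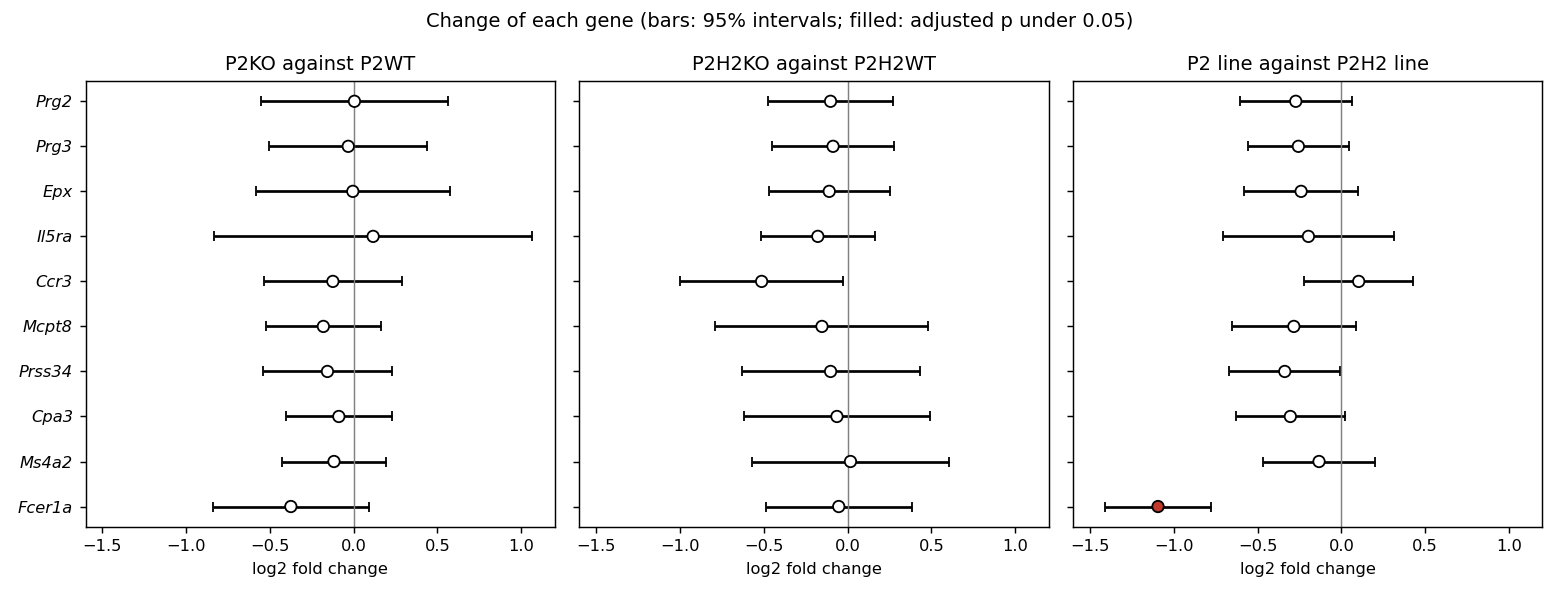
log2 fold change of each gene (x axis) in P2KO against P2WT, P2H2KO against P2H2WT and the P2 line against the P2H2 line, with bars for the 95% interval, filled where the adjusted p is below 0.05. Fcer1a in the comparison of the lines, at -1.09, is the only filled point.

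Among genes of the other lists, 1 more was called in a genotype comparison: Siglec1, the sialoadhesin of marrow macrophages, had a mean genotype effect of -0.65 (SE 0.11, adjusted p = 0.0259 by edgeR), while the 10 members had none. The lists of other eosinophil genes (5 of 6 tested), other basophil genes (4 of 5 tested) and mast cell genes (3 of 8 tested) had 0 calls in every genotype comparison.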

How the data were processed

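Total RNA of 16 libraries was sequenced with standard Illumina preparation, per the labels' protocols. The authors deposited 2 tables of raw counts per gene, 1 for each line, with 8 libraries each and no normalization, per the file headers. HTSeq and the mm10 build are named in the submitters' processing notes; the aligner, the annotation and the strand setting were not given in the sources used here. Groups and replicate numbers came from the titles. Counts were merged on 49585 identifiers, 49326 of which carried a symbol in the GENCODE annotation used here for names, lengths and coordinates; the other 259 held 0.00714% of counts. Rates are CPM, counts per 1000000 counts after scaling by the trimmed mean of M-values (TMM), and levels between genes are given per kilobase of exon.

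Genes were tested with edgeR 4.0.16 (filterByExpr, TMM, robust quasi-likelihood fit, two-sided, Benjamini-Hochberg adjustment over all genes tested, threshold 0.05), each line in its own fit of 8 libraries, and the contrasts over both lines in a fit of 16. All 10 members passed the filter in every comparison. DESeq2 1.42.0 (R 4.3.3), other scalings, other filters, the m or f suffix as a covariate and leaving out each library were the alternatives. Correlations used log2(CPM + 1). Paralogues were aligned with blastn 2.17.0. The edgeR fits of P2KO against P2WT and of the mean genotype effect were run on simulated counts. The other comparisons, that of the lines among them, were not tested in this way. The precision of a value follows its count: total counts were 23450746 to 28601284 per library.

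Named genes were all 10 members; from each other list, genes with an adjusted p below 0.05; and the 5 genes most like the most abundant member of each set. The members and lists were chosen with earlier results of these data known. The comparison of the title suffixes m and f was added after the values were seen.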

Additional observations from a re-analysis of the deposited data

How the results depend on the processing

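No paired analysis was run. The labels give no pairing of libraries, and no replicate number is shared between groups. Over all alternatives, 1320 values of 70 member results were computed: 1233 kept direction and side of the threshold, 84 changed sign, all of them for genes not called, and 3 passed it newly; Fcer1a in the comparison of the lines kept its direction and its call under every alternative run. The count of called genes depended on the tool: DESeq2 called 23 (P2KO against P2WT), 42 (P2H2KO against P2H2WT), 419 (P2WT against P2H2WT), 65 (mean genotype effect), 1406 (lines) and 435 (suffixes), against edgeR's 6, 10, 166, 24, 776 and 23. Requiring 10 counts in every library gave 87, 475 and 9 for the control groups, the lines and the suffixes, with no filter 58 for the suffixes, and with the spread of all 16 libraries 10 (P2KO against P2WT) and 32 (control groups). Leaving out each library gave 6 to 9 (P2H2KO against P2H2WT), 76 to 167 (control groups), 15 to 30 (mean genotype effect), 463 to 1268 (lines), 17 to 1066 (suffixes) and 15 to 26 correlated pairs, which were 22 to 25 under the other settings. In P2KO against P2WT, Prg2 was -0.0067 with RLE factors, -0.0067 with DESeq2 and -0.0063 with the spread of all 16, and Epx was 0.00017 with upper-quartile factors. With the suffix as a covariate Prg3 was 0.048 and Epx 0.098 there, and Prss34 0.0079, Cpa3 0.061 and Fcer1a 0.029 in P2H2KO against P2H2WT. The cause of these changes was not tested. Leaving out each library changed signs as follows. In P2KO against P2WT: Prg2 -0.30 to 0.14, Prg3 -0.29 to 0.086, Epx -0.34 to 0.13, Il5ra -0.44 to 0.39, Cpa3 -0.17 to 0.041. In P2H2KO against P2H2WT: Prg2 -0.21 to 0.010, Prg3 -0.21 to 0.016, Mcpt8 -0.44 to 0.025, Prss34 -0.32 to 0.031, Cpa3 -0.27 to 0.092, Ms4a2 -0.22 to 0.18, Fcer1a -0.17 to 0.064. In difference of the genotype effects between the lines: Prg2 -0.21 to 0.22, Prg3 -0.22 to 0.15, Epx -0.24 to 0.21, Il5ra -0.27 to 0.55, Mcpt8 -0.22 to 0.23, Prss34 -0.21 to 0.13, Cpa3 -0.20 to 0.15, Ms4a2 -0.32 to 0.076. In P2WT against P2H2WT: Ccr3 -0.17 to 0.00077, Ms4a2 -0.18 to 0.029. In mean genotype effect over both lines: Prg2 -0.20 to 0.012, Epx -0.22 to 0.0031, Il5ra -0.31 to 0.10, Ms4a2 -0.17 to 0.019. In P2 line against P2H2 line: Ccr3 -0.036 to 0.21. In suffix m against suffix f: Fcer1a -0.16 to 0.061.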

Other observations

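The library titles end in m or f, which the labels do not explain, and the 2 sets of members leaned in opposite directions between them. This comparison was chosen after the values were seen, and the suffixes are spread unevenly over the groups (10 libraries end in m and 6 in f). P2KO and P2H2WT each had 3 m and 1 f, and P2WT and P2H2KO each had 2 m and 2 f. The suffix is thus unbalanced in each genotype comparison, in opposite directions in the 2 lines. With group held fixed, the 5 eosinophil genes were lower in the m libraries and Mcpt8, Prss34, Cpa3 and Ms4a2 were higher, but edgeR called 0 of the 10 (23 of 14080 genes called, 0.163%). Of the 10 members, 2 were higher and 4 lower with an unadjusted p below 0.05 by edgeR. Such p-values, in either direction, were found for 17.5% of all genes. Leaving out single libraries moved the count of called genes, to 1066 without P2KO replicate 9 and 470 without P2KO replicate 6. The other eosinophil genes leaned as the eosinophil members did. All 5 tested were lower in the m libraries (median -0.40), each with an unadjusted p below 0.05 by edgeR and none called. The other basophil genes did not lean as the basophil members did, with 1 higher and 3 lower (median -0.05). Lists of other cells lay to one side too, with no gene called: 8 of 8 erythroid genes (median 0.24), 7 of 7 B cell genes (median 0.20) and 8 of 8 cell cycle genes (median 0.14) were higher in the m libraries, and 8 of 8 monocyte and macrophage genes (median -0.21) and 5 of 5 early granule genes (median -0.19) were lower. Their part in the members' values was not tested.

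Among the eosinophil genes, Il5ra had a log2 fold change of -0.56 (SE 0.21, adjusted p = 0.210) and Ccr3 of -0.46 (SE 0.11, adjusted p = 0.0963 by edgeR, 0.0130 by DESeq2). Without P2KO replicate 6 edgeR called Ccr3 (adjusted p = 0.0449). Ccr3 stood at 29.4 to 59.6 CPM (median 46.7) in the m libraries and 40.3 to 71.3 CPM (median 57.3) in the f libraries, so the ranges overlapped. Prg2 had -0.30, Prg3 -0.30 and Epx -0.33. Without P2KO replicate 9, Prg2 was at -0.10, Prg3 at -0.14, Epx at -0.12, Il5ra at -0.25 and Ccr3 at -0.37.

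Mcpt8 had a log2 fold change of 0.40 (SE 0.16, adjusted p = 0.242), Cpa3 of 0.32, Ms4a2 of 0.32 and Prss34 of 0.26. Mcpt8 stood at 38.0 to 84.8 CPM in the m libraries and 33.3 to 61.2 CPM in the f libraries. Fcer1a had -0.04 (SE 0.16, adjusted p = 0.921).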
